A study of Oryza sativa with 2 samples.

Results

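The chlorophyll and haem of a leaf share their first steps. This account covers 7 genes for the enzymes of that shared stretch in rice, from glutamate 1-semialdehyde to protoporphyrin IX: GSA, HEMB, HEMD, UPD1, UPD2, CPX and PPOX1. They were taken by their listed probe sets, 1 for each gene, out of 17905 genes with a probe set on the array. All 7 reached the signal floor on both arrays. Leaves of control 9311, an indica variety, were set against leaves of LRK1 transgenic 9311, the line titled LRK1 060615, whose transgene LRK1 belongs to the receptor-like kinases with leucine-rich repeats. The plants of both genotypes were 6 weeks old, had been kept in a greenhouse at 28 °C with 14 h of light and 10 h of dark, and had received no treatment. Leaves of 10 plants were taken for each genotype, and each genotype has 1 array. The promoter of the transgene, the number of independent lines behind the title and whether the 10 plants were pooled as tissue or as RNA are details not given in the sources used here.

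Plants build every tetrapyrrole from 5-aminolevulinic acid, which they make in the plastid from glutamate carried on a transfer RNA. HEMB, HEMD and the enzymes between and after them join this precursor into a ring, trim the side chains of the ring and oxidise it, and the last step leaves protoporphyrin IX. There the pathway forks, with magnesium going in on the way to chlorophyll and iron on the way to haem, while sirohaem leaves earlier, at uroporphyrinogen III. Several intermediates are photosensitisers, and herbicides that block protoporphyrinogen oxidase act through that property.

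Of the 7 genes, 6 had a higher signal on the LRK1 transgenic array and GSA had a lower one. The log2 ratios, all given as LRK1 transgenic over control, ran from 0.49 for HEMB to 1.17 for PPOX1 among the 6, and GSA was at -0.56. The median over the 7 was 0.69, a 1.62-fold difference, against a median of 0.02 over the 13526 genes that reached the floor on both arrays. A positive ratio was found in 51.1% of those genes. At a rule of 1.5-fold, 5 members were higher and 0 lower, where 19.0% of all genes were higher and 21.2% lower. At the 2-fold rule, 1 member, PPOX1, was higher and 0 were lower, where 6.82% of all genes were higher and 11.1% lower. A member was called by these rules only where both signals reached the floor of 5.40, the log2 signal at the median of all probe sets. With 1 array per genotype there is no replicate check and no test, so each value describes these 2 arrays, whose number limits the precision.

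Most members were brighter than the typical gene on the control array. HEMD and UPD1 were not, with 40.9% and 23.0% of genes below them in control signal. The same shares were also taken over the 9517 genes whose mean signal was at least that of the dimmest member, 8.51. This background was chosen after the data were seen. Among these genes 52.7% had a positive ratio, 18.3% were past 1.5-fold higher, 5.82% past 2-fold higher and 10.0% past 2-fold lower, and their median ratio was 0.04.

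**Figure D1:**
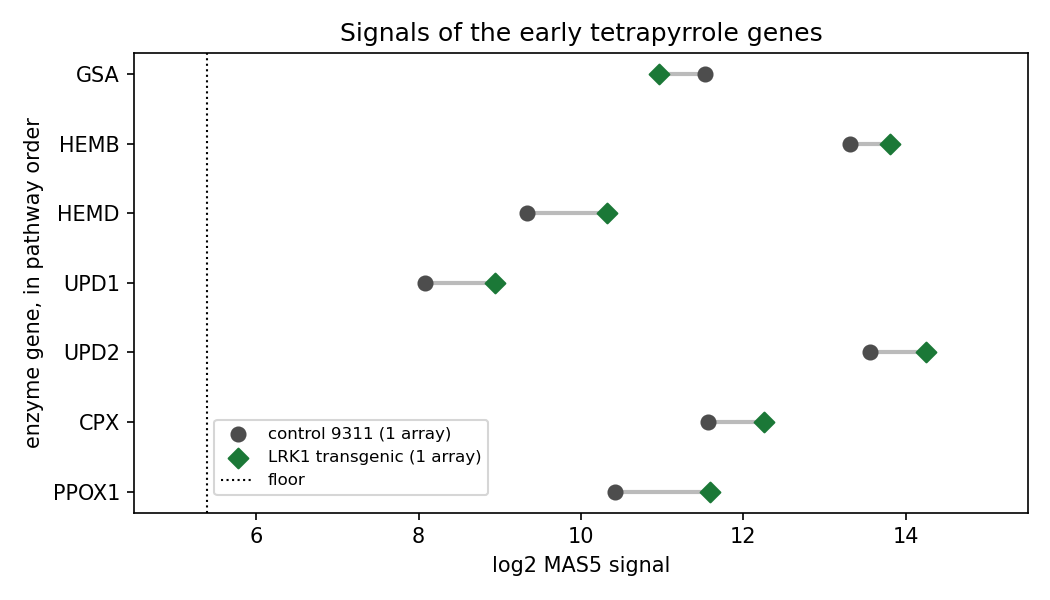
Log2 MAS5 signal (x axis) of each gene in pathway order (y axis) on the control 9311 array (grey circles) and the LRK1 transgenic array (green diamonds), 1 array each, with the floor of 5.40 as a dotted line. The diamond lies to the right of the circle for 6 genes and to the left for GSA, and all signals lie well above the floor, the lowest being 8.08 for UPD1 on the control array.

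GSA encodes glutamate 1-semialdehyde aminotransferase, which makes 5-aminolevulinic acid and so ends the part of the pathway that feeds the rest. Its probe set (Os.10144.1.S1_at, LOC4346136) read 11.53 (log2) in control leaves and 10.97 in LRK1 transgenic leaves. It was thus the member that was lower on the transgenic array, by 1.48-fold, just short of the 1.5-fold rule. Of all genes on both arrays 21.9% had a ratio below that of GSA. A second probe set for GSA (Os.51459.1.S1_at) read 5.13 and 5.80, a ratio of 0.67 in the opposite direction. Its control signal was below the floor and its transgenic signal close to it, so the readings of this gene disagree in sign, with the brighter one well above the floor.

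HEMB, also named ALADH, encodes 5-aminolevulinic acid dehydratase, which condenses that acid to the pyrrole porphobilinogen. It read 13.32 (log2) in control and 13.81 in LRK1 transgenic leaves, a ratio of 0.49 or 1.41-fold higher. This was the smallest of the positive ratios, and 23.2% of all genes had a higher one. The probe set (Os.7836.1.S1_s_at, LOC4341997) is of the kind marked _s_at, whose probes can match several transcripts, and no other probe set was assigned to the gene. The next enzyme, porphobilinogen deaminase, is encoded by HEMC (LOC4328432), to which the annotation used assigned no probe set.

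HEMD encodes uroporphyrinogen III synthase, which closes the linear chain of pyrroles into the ring. Its probe set (Os.31563.1.S1_at, LOC4331869) went from 9.33 on the control array to 10.31 on the LRK1 transgenic array. That ratio of 0.98, 1.97-fold, was the second highest of the members and lay just under the 2-fold rule, and 7.19% of all genes had a higher one.

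UPD1 and UPD2 are the paired genes for uroporphyrinogen decarboxylase, which takes the carboxyl groups off the acetate side chains and gives coproporphyrinogen III. UPD1 (Os.32068.1.S1_at, LOC4326635) had signals of 8.08 on the control and 8.94 on the LRK1 transgenic array, 1.81-fold higher. UPD2 (Os.10800.1.S1_at, LOC4332771) had 13.56 and 14.25, 1.61-fold higher. Both genes of this step were thus higher on the transgenic array, with ratios of 0.86 and 0.69. Their ratios differed by 0.17, less than the SD of 0.54 seen between ratios of different probe sets for the same gene. UPD1 was the dimmest member and UPD2 the brightest, but different probe sets differ in their response, so this says nothing of which transcript is more abundant. The share of all genes with a higher ratio was 9.76% for UPD1 and 14.9% for UPD2.

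CPX encodes coproporphyrinogen III oxidase, which turns propionate side chains into vinyl groups and yields protoporphyrinogen IX. Its probe set (Os.17919.1.S1_at, LOC4336951) read 11.56 on the control and 12.26 on the LRK1 transgenic array, a ratio of 0.69 and a fold of 1.62. It holds the middle place among the 7 ratios, and 14.8% of all genes had a higher one.

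PPOX1, also named PPO, encodes protoporphyrinogen oxidase, which gives protoporphyrin IX, the last compound that chlorophyll and haem have in common. Its log2 signal went from 10.41 on the control array to 11.58 on the LRK1 transgenic array. At 2.25-fold this was the largest difference among the members, and 4.36% of all genes had a higher ratio than its 1.17. The probe set (Os.5439.1.S1_a_at, LOC4327918) is marked _a_at, for probes shared by alternative transcripts of a gene, and it was the gene's sole probe set.

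**Figure D2:**
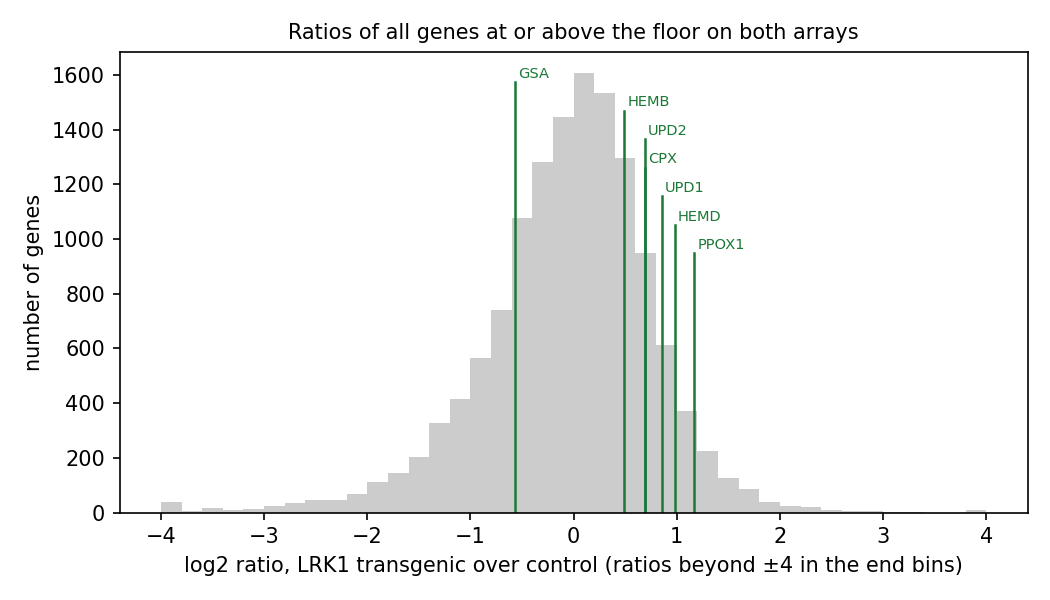
Number of genes (y axis) by log2 ratio of LRK1 transgenic over control (x axis, bins of 0.2, ratios beyond ±4 put in the end bins) for the 13526 genes that reached the floor on both arrays, with green lines at the ratios of the 7 members. GSA lies left of 0 and the others right of it, from 0.49 for HEMB to 1.17 for PPOX1, within the range that many other genes fill.

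In order of ratio the members ran PPOX1, HEMD, UPD1, CPX, UPD2, HEMB and GSA. Neighbours among the first 6 differed by 0.003 to 0.20, while HEMB and GSA differed by 1.06. A measure of how far readings of the same gene scatter comes from genes with several probe sets. Such probe sets may match different transcripts of the gene or share probes. In 936 genes with at least 2 probe sets as bright as the dimmest member, the ratios of the brightest pair differed with an SD of 0.54 and a median absolute difference of 0.23. In 1951 genes with such a pair at or above the floor the SD was 0.68. The step from HEMB to GSA, by the brighter GSA probe set, exceeds these values. Steps between sorted neighbours are small by construction, so those among the 6 positive members do not show how alike these members are. From HEMB to PPOX1 the 6 spanned 0.68. The SD of 0.54 is that of a difference between 2 readings. It is no yardstick for a range over 6, so whether the 6 differ beyond such scatter is not shown. This SD covers differences between probe sets on the same arrays, and leaves out differences between plants, RNA extractions and labellings. In order of the pathway, the ratio was -0.56 at GSA, 0.49 at HEMB and 0.98 at HEMD. It was then 0.86 at UPD1, 0.69 at UPD2, 0.69 at CPX and 1.17 at PPOX1. The ratios thus did not rise steadily along the pathway, and HEMC, between HEMB and HEMD, had no probe set.

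The size of these ratios depended on the scaling between the arrays. As deposited, the 63 bacterial spike probe sets were higher on the LRK1 transgenic array by a median of 0.34, and taking this off left HEMB at 0.16, UPD2 and CPX at 0.35, UPD1 at 0.52, HEMD at 0.64 and PPOX1 at 0.83, with GSA at -0.90. The median over the members was then 0.35 and that over all genes -0.31. Under spike centring 0 members passed the 2-fold rule upward, where 393 of 13285 genes did. The 1.5-fold rule was passed upward by 2 members, where 8.39% of all genes passed it. GSA was then past 1.5-fold lower, as were 35.1% of all genes. It was also past that rule after loess, as were 22.7% of genes, and after centring on the median ratio, as were 24.1%. Quantile normalization left PPOX1 at 1.17 and brought HEMD to 1.03, so that 2 members were past 2-fold higher, as were 926 of 13518 genes. In each of the 4 other scalings HEMB, HEMD, UPD1, UPD2, CPX and PPOX1 were positive and GSA negative. Of the genes past the 2-fold rule, 38.1% were higher as deposited (923 higher and 1501 lower) and 13.7% with spike centring (393 and 2482).

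**Figure D3:**
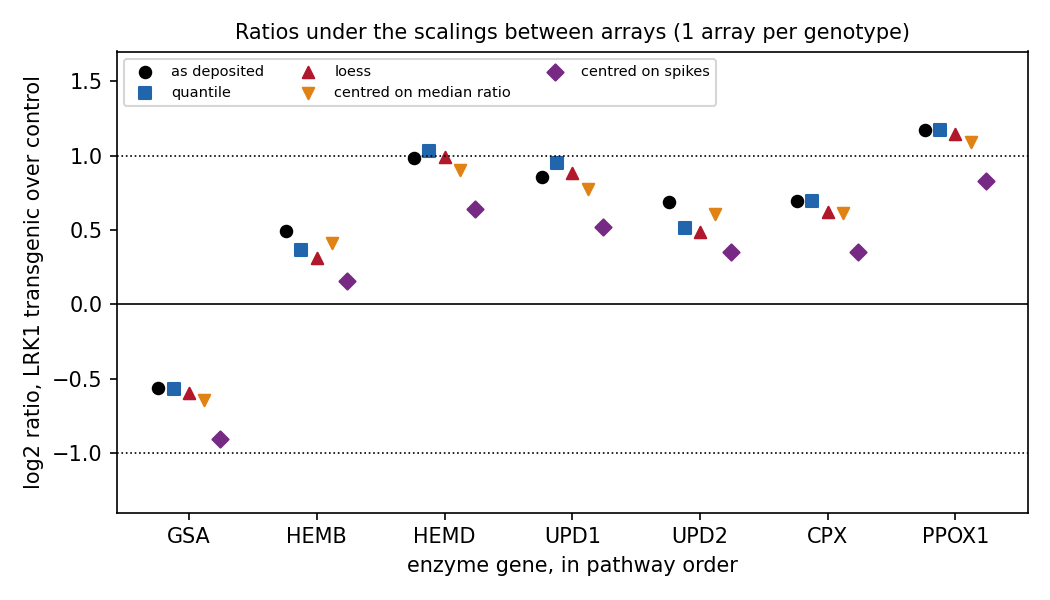
Log2 ratio of LRK1 transgenic over control (y axis) of each gene in pathway order (x axis), as deposited and under 4 other scalings between the arrays, with dotted lines at 2-fold. The spike-centred values (purple diamonds) are the lowest for every gene, at 0.83 for PPOX1 and -0.90 for GSA, and no gene changes sign.

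The rest of the pathway was taken from lists of gene symbols, and each list holds only the genes found by symbol or synonym with a probe set. Of the early steps beyond the 7 members, the list of 19 symbols gave HEMC, with no probe set, and a gene annotated as GBP (LOC4327708). The role of GBP was not settled from the tables used. It read 13.71 in control and 13.52 in LRK1 transgenic leaves, a ratio of -0.20. The symbols searched for glutamyl-tRNA reductase, which forms the substrate of GSA and limits the rate of the pathway in plants, matched no gene, so that step was not analysed here.

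After protoporphyrin IX, all 8 genes of the magnesium branch with a probe set had positive ratios, against 51.1% of all genes. Their median was 0.74 against 0.69 for the early members, and with spike centring 0.41 against 0.35. In this branch 6 genes were at least 1.5-fold higher, against 19.0% of all genes. Past the 2-fold rule, against 6.82% of all genes, was 1 gene of the branch. That gene was PORA, a light-dependent protochlorophyllide oxidoreductase, with log2 signals of 8.57 on the control and 10.18 on the LRK1 transgenic array. The smallest ratio was that of CHLG, chlorophyll synthase, at 11.48 and 11.86. CHLH, the subunit of magnesium chelatase that binds protoporphyrin IX and so takes up the product of PPOX1, read 14.13 and 14.99. It was named after its value was seen, and its ratio of 0.86 lies between those of HEMD and CPX. The ranges of the members without GSA (0.49 to 1.17) and of the magnesium branch (0.39 to 1.62) overlap.

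On the haem side the list reduced to the genes HO1 and HO2. Haem oxygenase opens haem toward the phytochrome chromophore, and whether HO2 has that activity was not settled from the tables used. HO1 (also SE5) had a ratio of 0.16 and HO2 of 0.61, so neither reached 2-fold. The symbol FC1 belongs in rice to a cinnamyl alcohol dehydrogenase gene, CAD7, and not to ferrochelatase, so it was left out, and no gene of the sirohaem side was found. The genes of the chlorophyll breakdown list differed in direction from each other. The stay-green gene SGR and the red chlorophyll catabolite reductase gene RCCR1 were past 2-fold lower, with ratios of -1.20 and -1.09. Of all genes 11.1% were past 2-fold lower. NOL, a chlorophyll b reductase gene, had the highest ratio of that list, 0.40, and NYC1 had 0.29. The list median was -0.40 over 4 genes.

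Among regulators of greening, 3 genes were found. The G2-like factor GLK2, known to switch on chlorophyll synthesis and photosystem genes, read 12.92 in control and 13.76 in LRK1 transgenic leaves by its brightest probe set, a ratio of 0.85. It has 4 probe sets, all with positive ratios, and the dimmer pair, at 1.62 and 1.41, was past 2-fold, so its call depends on the probe set. The related factor GLK1, named after its value was seen, had a ratio of 0.76. The lowest of the list was a bZIP gene matched by the synonym BZIP1 (current symbol TGA2.2), at -0.35, whose role in greening was not settled from the tables used.

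**Figure D4:**
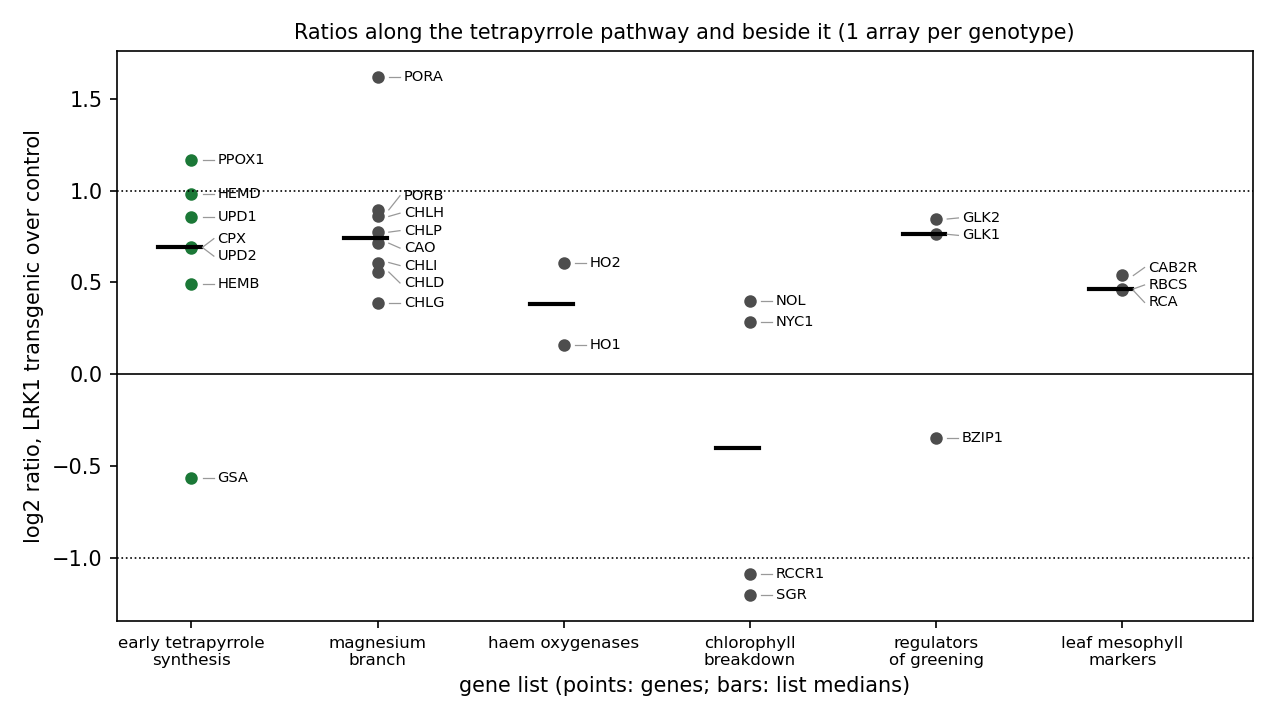
Log2 ratio of LRK1 transgenic over control (y axis) for each gene (points) of the early steps (green) and of the lists beside them (grey), with list medians as bars and dotted lines at 2-fold. The early steps other than GSA, the magnesium branch and the GLK genes lie above 0, leaf markers lie near 0.5, and SGR and RCCR1 lie below -1.

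The labelled tissue was checked on marker genes. The leaf mesophyll markers found were RBCS and RCA, for the Rubisco small subunit and Rubisco activase, and CAB2R, for an antenna protein, and all 3 lay near the top of the signal range, from 15.15 on the control to 16.24 on the LRK1 transgenic array. None of them was at 0, and the log2 of their summed linear signals came to 17.15 in control and 17.64 in transgenic leaves. Of 4 pollen and anther markers 0 reached the floor on either array. Of 4 root markers 2 did, the brighter being the silicon transporter gene LSI1 at 10.40 and 10.50, and of 4 endosperm markers 2 did, the brighter being the glutelin gene GLUA2 at 11.11 and 11.60. The leaf markers were themselves higher on the transgenic array, with ratios of 0.46 to 0.54. HEMB lay within that range. UPD2 and CPX lay 0.15 above its upper end, UPD1 0.32, HEMD 0.44 and PPOX1 0.63. Of these distances that of PPOX1 alone exceeds the SD of 0.54 between probe sets of a gene. The range rests on the brightest probe set of each marker, and by another RCA probe set its upper end would be 0.59, which makes every distance smaller. The reading of CAB2R on the transgenic array is the highest value of either array, and whether signals so near the top of the scale are compressed was not tested. Dimmer probe sets of the markers were named after their values were seen. Those of RBCS had ratios of 0.58 (from 12.82) and 0.24 (from 13.18), and another read 0.74 on the control array, below the floor, and 5.95 on the transgenic array. The other RCA probe sets had ratios of 0.46 to 0.59, and the other CAB2R probe set had 0.43. In whole leaves a larger share of green cells and more RNA per cell cannot be told apart, and the part of such a shift in the members' ratios was not tested.

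RNA integrity moved with the groups as well. Signal at the 3' end over that at the 5' end came to 9.45 on the control and 6.95 on the LRK1 transgenic array for actin, 3.87 and 2.16 for GAPDH, and 2.05 and 1.62 for cyclophilin. For ubiquitin it was 0.831 and 0.782. The labelling starts at the poly-A tail, and the part of this difference in the members' ratios was not tested.

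The members do not neighbour each other. Where members shared a chromosome, 883 protein-coding genes lay between HEMD and UPD2 and 904 between UPD1 and PPOX1 in the gene table of the japonica assembly ASM3414082v1. Of the 14 genes next to a member, 11 had a probe set and 8 reached the floor on both arrays. The rest are left out of what follows. Ratios of the 8 ran from -0.26 to 0.83 with a median of 0.40, against 0.02 over all genes. Of the 8, 6 were positive, against 51.1% of all genes. None of the 8 was past 2-fold, where 6.82% of all genes were higher and 11.1% lower.

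With 2 arrays the pattern of a gene across samples is a single ratio, so likeness to the members says little. The named genes nearest to their median ratio were Melibiase (LOC4348988) at 0.69, the protein kinase gene CIPK10 (LOC4332786) at 0.69 and the nicotianamine synthase gene NAS3 (LOC4344361) at 0.69. In all, 471 genes lay within 0.05 of that median.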

How the data were processed

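Total RNA was purified on RNeasy columns, checked on a Bioanalyzer and labelled with a 3' IVT kit, per the labels' protocols. The deposited values are log2 signals, and the submitters' processing notes name MAS5 as the tool. Their range of 0 to 16.24 gave the log2 scale. The MAS5 version and its scaling target are points not given in the sources used here, so whether MAS5 brought the arrays to a common level is not known. Median signals were 5.21 (control) and 5.56 (LRK1 transgenic).

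Of 57381 probe sets, 123 controls were left out. Genes came from the platform annotation and names from the gene table of ASM3414082v1. Other genes were represented by their brightest probe set. Groups came from the genotype labels. Calls used a floor of 5.40 and a 2-fold rule and were recomputed under 11 alternatives (Python 3.11.15, pandas 2.3.3, statsmodels 0.14.6). No p-value was computed, since each genotype has 1 array. Named genes were the members, each list's genes past 2-fold with its highest and lowest, and the 3 nearest ratios. The members and lists were chosen with earlier results of these data known. The planned protein and promoter comparisons were not run, as no sequences were used here.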

Additional observations from a re-analysis of the deposited data

How the results depend on the processing

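The median ratio of the members (0.35 to 0.69) stayed positive under all 11 alternatives. The floor and the fold rule do not enter this median, so the alternatives that changed only these could not have moved it. Under any of the 11 alternatives 0 members were past the size rule downward. The count of members past the rule upward, 1 as deposited, was 2 after quantile normalization, 0 with spike centring and 5 at the 1.5-fold rule. It was 0 without probe sets marked _x_at, _s_at or _a_at, where PPOX1 and HEMB have no probe set. Genes past the rule upward were, in the same order, 923 of 13526, 926 of 13518, 393 of 13285, 2576 of 13526 and 803 of 11703. PPOX1 was at 0.83 with spike centring. GSA turned to 0.051 with the median over its probe sets, which takes in the reading near the floor. Genes past the rule numbered 923 higher and 1501 lower as deposited, 393 and 2482 with spike centring, 2576 and 2866 at 1.5-fold, 479 and 784 when the floor was the 75th percentile, 2330 and 2747 with no floor, and 554 and 953 among genes as bright as the dimmest member. At the 25th percentile as floor 1481 were higher. Adding 16 to the signals left the members' median at 0.69. Probe sets near the floor limit what dim genes can show. No paired analysis was possible because each genotype has 1 array.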
